A study of Mus musculus with 6 samples.

Results

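The cells described here are cycling large pre-B cells that carry a productive heavy chain and no productive light chain. They were selected on measured values: RNA counts in the gene-expression libraries and the chains read for the same cell. A cell needed 500 or more UMIs (unique molecular identifiers, 1 per captured RNA molecule) over 300 or more genes, with no more than 10% of them mitochondrial. A member had at least 2 UMIs summed over Mki67, Top2a, Cdk1 and Birc5 (genes of dividing cells), at least 1 UMI of Cd79a (a signalling chain of the B cell receptor), fewer than 10 of Jchain and at most 1 over Fcer2a and Fcmr. Its barcode also had at least 1 productive immunoglobulin heavy chain (IGH) contig and no productive kappa (IGK) or lambda (IGL) contig in the V(D)J library of the same group. The rule found 3273 of 26915 kept cells, of which 1788 were young, 1227 aged and 258 IkB-deficient.

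All mice were C57BL/6. The young group was wild type and 12 weeks old, the aged group was wild type and 100 weeks old, and the IkB-deficient group was 12 weeks old with the genotype nfkbie-/-nfkbib-/-nfkbia+/-. Each group was a pool of bone marrow from 2 mice, sorted for B220+ cells lacking IgM, IgD and a panel of T cell, myeloid and NK cell surface markers, which takes in Hardy fractions A to D. Each pool gave 1 gene-expression library by the 10x Genomics 5' method and 1 V(D)J library. With 1 library a group there is no replicate error and no test between groups. Intervals are 95% exact intervals that cover counting error only, and both comparisons share the young library.

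A B cell precursor first joins the V, D and J segments of its heavy chain. The heavy chain then pairs with the surrogate light chain, made of the Igll1 (lambda-5) and Vpreb products, in the pre-B receptor on the large pre-B cell. Signals from this receptor and from the interleukin-7 receptor drive a burst of divisions, after which the surrogate light chain genes are shut off, the cell stops dividing and light chain joining begins. IkB proteins hold NF-kB transcription factors in the cytoplasm, and Nfkbia, Nfkbib and Nfkbie encode IkB-alpha, IkB-beta and IkB-epsilon.

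The heavy chain is what tells 1 large pre-B cell from another, and its CDR3 (the third complementarity-determining region, spanning the V-D-J join) is shown for clones of more than 1 cell, because shared CDR3s reappear in the clone counts. A clone here is a set of heavy-chain cells of 1 library with the same V gene, J gene and CDR3 nucleotides. The capitals mark the first codon (cysteine) and the last codon (tryptophan), and each sequence was read from the deposited contigs.
young, IGHV1-20 with IGHJ3: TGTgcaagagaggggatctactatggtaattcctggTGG
young, IGHV9-3 with IGHJ3: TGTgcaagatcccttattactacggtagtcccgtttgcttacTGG
aged, IGHV1-36 with IGHJ2: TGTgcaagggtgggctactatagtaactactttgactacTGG
aged, IGHV5-2 with IGHJ3: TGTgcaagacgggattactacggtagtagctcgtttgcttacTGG
IkB-deficient, IGHV5-2 with IGHJ4: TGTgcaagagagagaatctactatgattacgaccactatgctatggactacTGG
IkB-deficient, IGHV6-6 with IGHJ3: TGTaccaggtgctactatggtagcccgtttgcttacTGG
The young IGHV1-20 clone held 8 cells, 4 of them large pre-B, and the young IGHV9-3 clone 3 cells, 2 of them large pre-B. The aged IGHV1-36 clone held 8 cells, 6 of them large pre-B, and the aged IGHV5-2 clone 5 cells, 4 of them large pre-B. The IkB-deficient IGHV5-2 clone held 4 cells, 3 large pre-B and 1 resting, and its IGHV6-6 clone 3 cells, 2 large pre-B and 1 resting. Heavy-chain UMIs per cell ran, in the printed order, from 3 to 10 and 1 to 13 in the young clones. They ran from 1 to 4 and 2 to 24 in the aged clones, and from 12 to 48 and 3 to 11 in the IkB-deficient clones. The median large pre-B cell of these libraries had 19, 16 and 24, so the largest young and aged clones rest on few UMIs a cell.

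The libraries held 50701225 to 78266890 UMIs, and 9509 young, 7850 aged and 9556 IkB-deficient cells passed the filters. The young and aged libraries shared 85 barcodes, the young and IkB-deficient 108 and the aged and IkB-deficient 96, and 2, 1 and 0 of these were large pre-B cells in both. No such cell had the same CDR3 in both libraries. Of the large pre-B cells, 71.6% of the young, 47.6% of the aged and 0 of the IkB-deficient cells had Y-linked UMIs without Xist, and 0, 25.3% and 95.7% had Xist without Y-linked UMIs. Sex and genotype therefore cannot be told apart where IkB-deficient cells are compared, and the aged mice were of both sexes. As the aged pool held 2 mice, its Y-linked and Xist-only cells come from 1 mouse each. Sex and mouse therefore cannot be told apart within it. Doublets were kept: cells with the highest Scrublet doublet scores made up 9.73% of the young, 10.9% of the aged and 19.0% of the IkB-deficient large pre-B cells.

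The targeted genes were measured first, in CPM, the UMIs of a gene per 1000000 UMIs of a library's large pre-B cells with immunoglobulin and T cell receptor genes left out. Nfkbie was at 41.9 CPM in young, 32.4 in aged and 2.004 in the IkB-deficient cells, from 810, 425 and 6 UMIs, so that the young level was 20.9 times (9.56 to 57.1) the IkB-deficient level. Nfkbib was at 49.9, 50.3 and 19.4 CPM (2.58-fold between young and IkB-deficient), and Nfkbia, with 1 allele targeted, was at 368, 316 and 219 CPM (1.68-fold). All 3 were lowest in the library labelled IkB-deficient. Which exons were deleted is not given in the sources used here, so RNA from outside a deleted part would still be counted.

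The genes named in the label were checked, as a description. Mki67 was at 545, 435 and 383 CPM in young, aged and IkB-deficient cells, Top2a, a topoisomerase of dividing cells, at 984, 791 and 749, and Cd79a at 1955, 1831 and 1914. Ighm, the mu heavy chain gene, was at 1072, 829 and 1074 CPM and had a UMI in 99.6%, 98.04% and 99.6% of the cells. Nrgn, a calmodulin-binding protein, was at 90.5, 97.3 and 37.1 CPM, and only 28.7%, 35.6% and 12.4% of the cells had a UMI of it. After each cell was thinned to 5000 UMIs these shares were 19.5%, 24.0% and 7.66%, against 2.10%, 5.42% and 2.61% in cells with 3 or more UMIs of Siglech, a plasmacytoid dendritic cell gene, and none of Cd79a. The Siglech cells had medians of 6689, 7654 and 6527.5 UMIs and the large pre-B cells 8985, 8971 and 9703.5. Nrgn was thus above this background in all 3 libraries but in a minority of the cells.

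Genes of other cell types were lowest for T, erythroid, macrophage, conventional dendritic and mast cells. The erythroid list summed to 1.71 CPM in young, 2.21 in aged and 0 in the IkB-deficient cells. The 6 pro-B markers (Igll1, Vpreb1, Vpreb2, Dntt, Kit and Rag1) summed to 1025 CPM in young, 1701 in aged and 3140 in the IkB-deficient cells. Most of this sum was Igll1 and Vpreb1, surrogate light chain genes that large pre-B cells also use. It is therefore not a measure of pro-B cells among the members. The plasmacytoid dendritic cell list summed to 341, 330 and 601, and the plasma cell list to 665, 623 and 960. The NK and innate list summed to 59.0, 68.6 and 98.8 CPM, the mature B list to 83.2, 73.6 and 83.1, and the conventional dendritic and macrophage lists to less than 10 in each library. The neutrophil-lineage list summed to 4.34, 14.8 and 103 CPM with 7 of 8 genes found, where the granule enzyme genes Mpo, Prtn3 and Ctsg had 132, 87 and 46 UMIs in 3, 3 and 1 IkB-deficient cells, and 90.9%, 90.8% and 100% of them came from 1 cell per gene. The T cell list summed to 2.38, 0.685 and 2.34 CPM, and Cd3e, a T cell receptor chain, had 14, 0 and 0 UMIs. Adgre1, the macrophage marker F4/80, and the mast cell genes Cpa3 and Ms4a2 had 0 UMIs in all 3 libraries. Leaving out the 40 young, 43 aged and 19 IkB-deficient cells with 3 or more UMIs of non-B markers is given beside the results it bears on.

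Large pre-B cells were fewer in the aged and far fewer in the IkB-deficient library. They made up 18.8% (18.0 to 19.6) of the kept young cells, 15.6% (14.8 to 16.5) of the aged and 2.70% (2.38 to 3.04) of the IkB-deficient cells. The aged share was 0.831 (0.772 to 0.894) of the young share, and the young share was 6.96-fold (6.11 to 7.97) the IkB-deficient share. Dividing Cd79a+ cells were no rarer in the IkB-deficient library, with 2380 young, 2067 aged and 2514 IkB-deficient cells, so the difference lay in their chains. Of these dividing cells 75.1% (73.3 to 76.9), 59.4% (57.2 to 61.5) and 10.3% (9.10 to 11.5) had a heavy chain only, while 19.4%, 36.1% and 85.5% had no productive chain. Cells with a heavy and a light chain made up 5.21%, 3.68% and 0.477%, and cells with a light chain only 0.252%, 0.822% and 3.74%. The shares also depend on the sort and on contig recovery: the V(D)J libraries held 475715, 281513 and 339396 UMIs, and the median heavy chain UMIs per large pre-B cell were 19, 16 and 24. Within the aged pool, large pre-B cells made up 17.4% of the cells with only Y-linked and 16.5% of those with only Xist UMIs, against 20.98% of the Y-linked young cells.

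**Figure D1:**
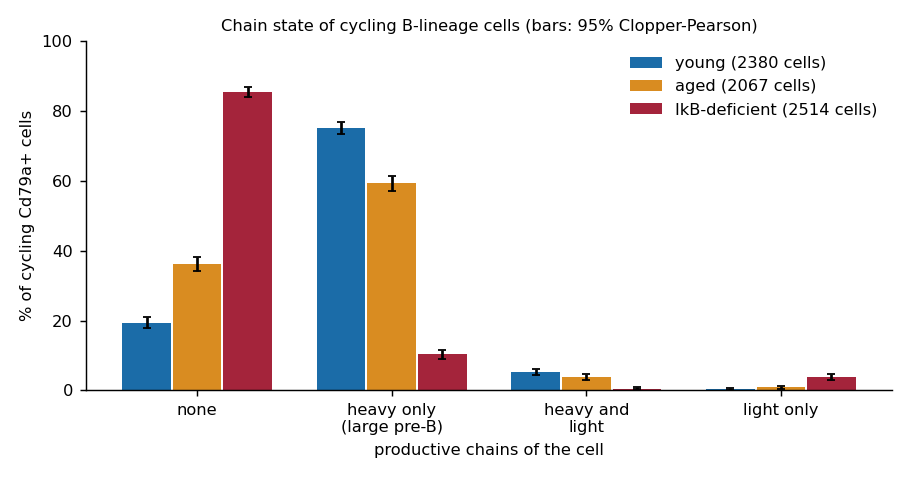
Share of dividing Cd79a+ cells (y axis, percent; n in the legend) by the productive chains of the cell (x axis) in the 3 libraries, with error bars for exact 95% intervals. Heavy chain only, the large pre-B state, runs from 75.1% in young to 10.3% in the IkB-deficient cells, and no chain from 19.4% to 85.5%.

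Most members lay well above the threshold. Exactly 2 UMIs of the 4 dividing-cell genes were found in 78 young, 73 aged and 19 IkB-deficient members, and 411, 124 and 47 heavy-chain-only cells with 1 such UMI fell just outside. The median member had 23, 20 and 20 such UMIs, and a member had a median of 2901, 2818 and 3010.5 genes. Cells with a heavy chain only and none of the 4 genes, called resting below, numbered 2974, 1626 and 455 with medians of 3132.5, 2853 and 3285 UMIs.

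Large pre-B cells differed among themselves in Igll1, which the rule did not use. At 5000 UMIs a cell, 43.9% (41.5 to 46.4) of the young, 64.6% (61.6 to 67.4) of the aged and 70.6% (64.4 to 76.4) of the IkB-deficient cells had an Igll1 UMI, against 3.60%, 2.41% and 10.6% of the Siglech cells thinned likewise. These rest on 1559, 1070 and 235 cells, with 229, 157 and 23 shallower cells left out; unthinned, the shares were 47.4%, 67.2% and 70.5%. Within the aged pool the unthinned share was 73.5% in cells with only Y-linked UMIs and 59.0% in cells with only Xist UMIs, against 52.8% of the Y-linked young cells. No Igll1 UMI was found in 941, 402 and 76 cells, and 350, 388 and 115 cells had 10 or more. The cells with 10 or more were deeper, with medians of 18272.5, 15470 and 15794 UMIs against 7685, 6958.5 and 6900. The split was chosen after the data were seen.

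The Igll1 axis separated genes alike in the 3 libraries. Of 5173 genes measured in all of them, 158 were at least 2-fold higher in the cells without Igll1 in every library and 124 at least 2-fold lower, where each library alone gave 6.65%, 5.71% and 5.64% of genes higher and 3.90%, 3.98% and 5.21% lower in young, aged and IkB-deficient cells. The genes of this paragraph and the next were named after their values were seen. Surrogate light chain genes went with Igll1: Vpreb1 was at 19.6 CPM without Igll1 and 792 at 10 or more in young, 32.9 and 925 in aged, and 26.9 and 1623 in the IkB-deficient cells. Growth genes were lower without Igll1: Myc, a growth-driving transcription factor, was at 2.61 and 153 CPM in young, 3.58 and 187 in aged, and 11.8 and 165 in the IkB-deficient cells. Mif, a secreted cytokine, was at 202 and 1277, 212 and 1297, and 252 and 1296 CPM. Srm, spermidine synthase of polyamine synthesis, was at 9.61 and 238, 8.94 and 255, and 35.3 and 227 CPM. Ldha, lactate dehydrogenase, was at 174 and 972, 201 and 938, and 245 and 951 CPM. Myc and Srm were at least 4-fold lower without Igll1 in each library, and the IkB-deficient cells without Igll1 had more of Myc and Srm than the young ones. That IkB-deficient class held only 76 cells and 595033 UMIs, so its values for genes of low level rest on few UMIs.

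Genes higher without Igll1 included surface molecules and brakes on the cell cycle. Il2ra, the interleukin-2 receptor alpha chain (CD25) that marks later pre-B cells, was at 52.8 CPM without Igll1 and 11.4 at 10 or more in young, 68.3 and 12.8 in aged, and 40.3 and 10.4 in the IkB-deficient cells. Cd38, a surface enzyme, was at 134 and 28.4, 176 and 31.6, and 75.6 and 11.5 CPM. Cdkn2d, an inhibitor of cyclin D kinases, was at 504 and 124, 557 and 154, and 445 and 119 CPM. Klf2, a transcription factor of resting lymphocytes, was at 335 and 64.9, 395 and 121, and 329 and 100 CPM. Socs1, an inhibitor of cytokine receptor signalling, was at 58.3 and 6.95, 51.5 and 8.59, and 62.2 and 17.5 CPM. All 5 were higher without Igll1 in every library. Rag1, which cuts DNA for V(D)J joining, was at 47.8 and 17.7, 51.1 and 30.6, and 35.3 and 37.1 CPM. It showed no such difference in the IkB-deficient cells, where the value without Igll1 rests on few UMIs. Nrgn ran the other way in 2 libraries: it was at 17.3 CPM without Igll1 and 177 at 10 or more in young, 20.4 and 134 in aged, and 45.4 and 39.9 in the IkB-deficient cells.

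**Figure D2:**
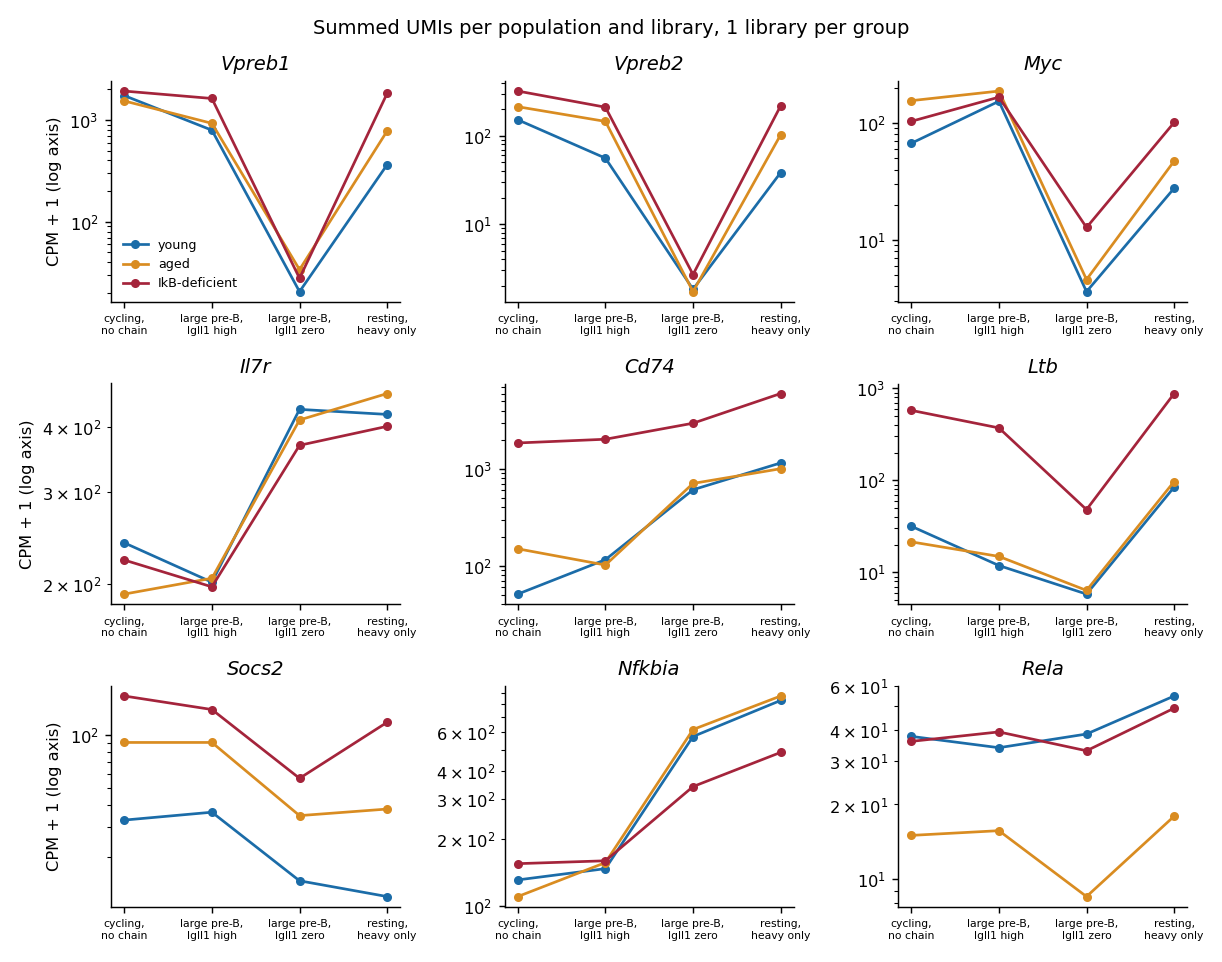
CPM + 1 (y axes, log scale) of 9 genes in 4 populations (x axes), dividing cells without a chain, large pre-B cells with 10 or more and with 0 Igll1 UMIs, and resting cells with a heavy chain only; points are single libraries and lines join the points of a library without implying a measured course. Vpreb1, Vpreb2 and Myc are low in large pre-B cells without Igll1 in all 3 libraries, Cd74 and Ltb are higher in the IkB-deficient library in every population, and Rela is lower in the aged library in every population.

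Dividing cells without Igll1 had more RNA of G2 and mitosis genes. At 5000 UMIs a cell the median young cell had 64 UMIs over the 30 listed G2 and M genes, the aged 57 and the IkB-deficient 40. Among cells without Igll1 the medians were 90, 91.5 and 89, and among those with 10 or more 35, 34 and 30. The S phase list gave 33, 34 and 31 UMIs, with 29, 30 and 25.5 in cells without Igll1 and 34, 33 and 29 at 10 or more. For G2 and M the medians of the libraries were closer within each Igll1 class than over all large pre-B cells, and for S phase they were not. All 30 G2 and M genes were lower in aged than in young cells, where 59.0% of all genes were, and all 30 were lower in the IkB-deficient cells, where 46.3% of all genes were. In cells without Igll1, 12 of the 30 were higher in aged cells, with a median log2 ratio of -0.01, where 44.5% of all genes were higher. At 10 or more Igll1 UMIs 7 of the 30 were higher in aged cells, with a median of -0.07, where 51.9% of all genes were higher. In both Igll1 classes 4 of the 30 were higher in the IkB-deficient cells, with medians of -0.17 and -0.26, where 48.6% and 61.8% of all genes were higher. The dividing-cell genes of the rule were left out of these phase lists. The cells were still chosen as dividing by those genes, so the values are a description.

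Aged large pre-B cells were close to the young in most genes and higher in Vpreb2, Dntt, Socs2 and S100a6. Of 5479 genes with a mean of at least 20 CPM, 5 (0.0913%) were at least 2-fold higher and 3 (0.0548%) at least 2-fold lower on the log2(CPM + 5) scale, and the median over all genes was -0.03. Vpreb2, a surrogate light chain gene, had 20.7 CPM in the young and 76.8 in the aged library (a ratio of 3.71, 3.30 to 4.18). Its near-identical copy Vpreb1 was at 328 and 533, and reads may have been divided between them. Dntt, the enzyme TdT that adds untemplated bases at V(D)J joins, was at 70.1 and 164 CPM (2.34-fold, 2.19 to 2.51). Socs2, induced by cytokine receptors, was at 24.6 and 66.4 CPM (2.70-fold, 2.42 to 3.03). S100a6, a calcium-binding protein, was at 9.05 and 34.9 CPM (3.86-fold, 3.23 to 4.62). The fifth gene was Xist, which goes with the sex of the mice.

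Several of these values moved with Igll1, between the Y-linked and Xist-only cells of the aged pool, or with doublets. Within the Igll1 classes 8 genes (0.144%) were higher and 6 (0.108%) lower without Igll1, and 10 (0.187%) higher and 1 (0.0187%) lower at 10 or more. Among cells with 10 or more Igll1 UMIs, Vpreb2 was at 54.9 CPM in young and 145 in aged cells, Dntt at 171 and 299 and Socs2 at 35.2 and 89.4. Among cells without Igll1, Socs2 was at 13.7 and 33.6 and Dntt at 11.4 and 30.4. Dntt was at 175 CPM in aged cells with only Y-linked UMIs, 77.8 in those with only Xist and 81.0 in Y-linked young cells. S100a6 was at 15.4, 46.7 and 10.5 CPM in the same cells. In the aged pool S100a6 was thus higher and Dntt lower in Xist-only than in Y-linked cells. Without the top doublet scores, 1614 young and 1093 aged cells remained. S100a6 was then at 2.88 and 16.0 CPM, Vpreb2 at 19.3 and 64.0, Socs2 at 24.5 and 65.6, and Dntt at 47.4 and 79.2, under 2-fold. Without the cells holding non-B markers S100a6 was at 1.66 and 16.0 CPM.

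Just under the 2-fold line, Ccnd2 was at 57.1 and 115 CPM in young and aged cells, Igfbp4, which binds insulin-like growth factors, at 38.9 and 81.5, Fxyd5, a membrane protein, at 38.3 and 81.3, and Rhob, a small GTPase, at 57.4 and 117. At the other end, Rela, the p65 subunit of NF-kB, was at 34.6 CPM in young, 11.04 in aged and 35.1 in the IkB-deficient cells (3.14-fold between young and aged, 2.62 to 3.78). Rela was lower in other aged cells as well, at 36.6 and 14.0 CPM in dividing cells without a chain and 53.8 and 16.9 in resting cells. Hist1h2af was at 43.7 and 15.3 CPM and Hist1h3d at 30.8 and 10.9. Both encode core histones, and clustered histone genes are near-identical copies whose counts are uncertain. Egfl6, a secreted protein, was at 41.1 and 19.0 CPM, and Dusp5, a phosphatase of the MAP kinase ERK, at 35.8 and 17.3.

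Among the gene lists, immediate early genes were higher in aged cells. Of 13 measured, 11 lay above 0 and the median log2 ratio was 0.28, where 41.0% of all genes were above 0, and in both Igll1 classes 13 of 13 were above 0 with medians of 0.43 and 0.53, where 44.5% and 51.9% of all genes were above 0. Fos, an AP-1 transcription factor subunit quickly induced by many stimuli, was at 209 CPM in young and 373 in aged cells. Ier2 was at 88.6 and 148, Junb, another AP-1 subunit, at 104 and 144, and Egr1, a zinc finger factor, at 8.32 and 18.8. The median was 0.77 in resting cells and 0.06 in dividing cells without a chain, where the medians over all genes were -0.02 and -0.04. MHC class I genes had 15 of 17 above 0 with a median of 0.14; H2-Q7, a nonclassical class I gene with close copies, was at 130 and 216 CPM and B2m, the class I light chain, at 940 and 1108. The surrogate light chain and pre-B receptor list had 3 of 5 above 0 and a median of 0.63, with Igll1 at 574 and 893 CPM.

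Against the 41.0% of all genes above 0 in the aged comparison, the S phase list had 14 of 30 above 0, interleukin-7 receptor signalling 4 of 8 and nuclear genes of oxidative phosphorylation 10 of 22. Pre-B receptor signalling had 1 of 17 with a median of -0.11 and B-lineage transcription factors 6 of 20 with a median of -0.09. At 10 or more Igll1 UMIs these medians were -0.0024 and 0.035. The NF-kB target list had 2 of 8 above 0 with a median of -0.10, and 5 of 6 with a median of 0.07 at 10 or more Igll1 UMIs. The 12 clustered histones measured were all below 0 with a median of -0.46, where 59.0% of all genes were below 0. On the cell surface, Ly6d, an early B-lineage surface protein, was at 528 CPM in young and 330 in aged cells.

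IkB-deficient large pre-B cells differed from the young in many more genes, among them the cytokine gene Ltb and MHC class II genes. Of 5639 genes, 113 (2.0%) were at least 2-fold higher and 86 (1.53%) at least 2-fold lower, with a median over all genes of 0.02. Ltb, lymphotoxin beta, a cytokine of lymphoid tissue formation, was at 6.62 CPM in young, 10.1 in aged and 249 in the IkB-deficient cells (37.6-fold over young, 31.2 to 45.8). It had a UMI in 4.25% of young and 41.5% of the IkB-deficient cells. Cd74, the invariant chain of MHC class II, was at 356, 292 and 2668 CPM (7.50-fold, 7.26 to 7.75). Nfkb2, the p100 precursor of the NF-kB subunit p52, was at 14.2, 10.4 and 64.1 CPM (4.51-fold, 3.73 to 5.44). In all 3 genes the aged level was close to the young one and the IkB-deficient level stood apart. The median UMIs per cell and the cell types of the libraries are as given above. The pro-B marker sum, mostly Igll1 and Vpreb1, moved with this comparison, and its part in the result was not tested.

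Genes at 9.77 CPM or less in young cells headed the list of genes higher in the IkB-deficient cells, and some of them were nearly silent in young and aged cells. Wnt10b, a Wnt ligand, was at 0.207, 0.381 and 43.7 CPM from 4, 5 and 131 UMIs (212-fold, 80.7 to 788). Ebi3, a shared subunit of the cytokines interleukin-27 and interleukin-35, was at 0.258, 0.533 and 40.7 CPM (158-fold, 65.7 to 494). Ehd3, a membrane traffic protein, was at 2.48, 3.27 and 93.8 CPM. Gimap4, a lymphocyte GTPase, was at 3.46, 15.5 and 110, and Ly6a, the stem cell antigen Sca-1, at 2.74, 11.5 and 81.1. Gdpd3, a lipid phosphodiesterase, was at 1.24, 0.761 and 66.1 CPM, and Tmem176b, a membrane protein, at 9.77, 23.9 and 151. The serpins Serpina3g and Serpina3f, near-identical copies whose counts are uncertain, were at 1.603, 2.21 and 81.5 and at 2.38, 3.96 and 81.1 CPM. Gimap4, Ly6a and Tmem176b were also above young in aged cells, by smaller amounts. After the top doublet scores were left out, with 209 IkB-deficient cells, Wnt10b was at 0.173 in the young and 35.0 CPM in the IkB-deficient cells, Ebi3 at 0.173 and 14.6, Ltb at 3.63 and 146, Ly6a at 1.79 and 48.3, and Cd74 at 330 and 2264. Without cells holding non-B markers, Ltb was at 6.37 and 260 CPM and Cd74 at 356 and 2480.

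**Figure D3:**
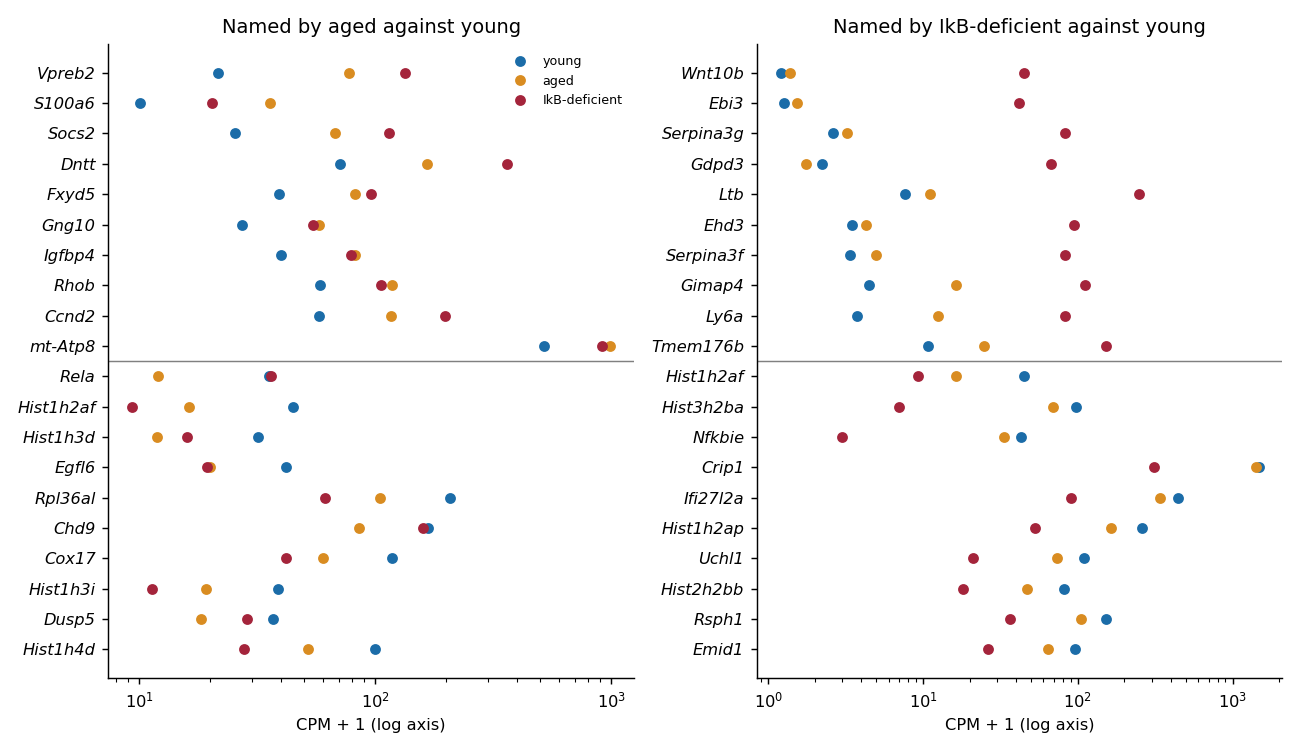
CPM + 1 (x axes, log scale) in large pre-B cells of the 3 libraries (1 point a library) for the genes named by aged against young (left) and by IkB-deficient against young (right), with higher genes above the line and lower genes below it. Ltb lies at 6.62, 10.1 and 249 CPM, while most genes named by the aged comparison lie closer together.

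MHC class II genes were higher together. Of 9 measured 8 were above 0, where 53.7% of all genes were, 6 were at least 2-fold higher and the median log2 ratio was 1.79. H2-Aa, a class II alpha chain, was at 188 CPM in young, 159 in aged and 662 in the IkB-deficient cells, H2-Ab1, its beta chain partner, at 282, 211 and 438, and H2-Eb1, another beta chain, at 74.2, 64.0 and 312. The peptide-loading gene H2-DMa was at 35.3 CPM in the young and 94.2 in the IkB-deficient cells and H2-DMb2 at 5.79 and 87.8, while its counterpart H2-Ob was at 63.2 and 56.8. Of 17 MHC class I genes 16 were above 0, 3 of them 2-fold, with a median of 0.57. H2-K1, a classical class I chain, was at 901, 1113 and 2092 CPM, H2-D1 at 1358, 1453 and 1885, and B2m at 940, 1108 and 1699. Close copies among the H2 genes leave their counts uncertain.

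NF-kB pathway genes are given by role, against 53.7% of all genes above 0 and 2.0% at least 2-fold higher. Of 5 subunit genes 5 were above 0 with a median of 0.34. Relb, the partner of p52, was at 22.5 CPM in the young and 45.1 in the IkB-deficient cells, and Nfkb1, the precursor of p50, at 43.4 and 56.1. Of 12 targets 9 were above 0 and 4 at least 2-fold higher, with a median of 0.54. The highest log2 ratio, 4.45, was that of Ltb, already described above. Birc3, an inhibitor of cell death, was at 30.4 and 72.8 CPM and Irf1, an interferon regulatory factor, at 45.9 and 110. Tnfaip3, the inhibitor A20, was at 12.0 and 28.0, just under 2-fold on the log2(CPM + 5) scale. Icam1, an adhesion molecule, was at 8.74 and 25.4, with a mean below 20 CPM, and so was not among the measured targets. Bcl2l1, an inhibitor of cell death, was at 86.6 and 57.8 CPM and Gadd45b, a stress gene, at 27.2 and 19.0, so targets differed in direction. The target list's median was 0.21 without the top doublet scores. Of the interferon response list 7 of 9 were above 0 and 4 at least 2-fold higher; Bst2, tetherin, was at 80.6 and 188 CPM. The interferon median was 0.47, and -0.26 in cells without Igll1. Birc3, Irf1, Icam1, Tnfaip3 and Gadd45b were named after their values were seen.

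Promoters were read for a form of the NF-kB site, the letters GGGA followed by any base and then TTTCC, on both strands in RefSeq windows from 250 bases before to 50 after each gene start (GRCm38.p6). No other motif was searched. The motif was in 0.411% of 32851 windows and, counted by gene, in 126 of 27025 genes (0.466%). Of the 10 genes named as highest in the IkB-deficient cells 9 had a window and 1, Ltb, held it. Of the 10 lowest 4 had a window and 0 held it, and of the NF-kB targets 2 of 20 did (Il6 and Ltb). It was also in 1 of 16 class I genes (B2m), 0 of 7 class II genes, 1 of 3 inhibitors (Nfkbia) and 1 of 3 subunits (Nfkb2). Windows of Ltb, B2m and Nfkbia are printed because they are a strongly higher gene, a mildly higher gene and a targeted gene that each hold a match, which is in capitals.
Ltb, chr17:35194375-35194474, plus strand: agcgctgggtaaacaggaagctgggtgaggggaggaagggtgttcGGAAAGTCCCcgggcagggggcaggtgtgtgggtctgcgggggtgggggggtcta
B2m, chr2:122147516-122147615, plus strand: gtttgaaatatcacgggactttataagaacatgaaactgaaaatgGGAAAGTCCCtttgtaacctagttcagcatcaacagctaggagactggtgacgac
Nfkbia, chr12:55492648-55492721, minus strand: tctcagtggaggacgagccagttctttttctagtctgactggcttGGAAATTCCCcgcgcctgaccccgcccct
The match ended 77 bases before the start of Ltb, 116 before B2m and 19 before Nfkbia. Such a match is a description of the letters in the window.

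Several of these values differed within the IkB-deficient library by Igll1. Ltb was at 47.1 CPM in the IkB-deficient cells without Igll1 and 370 at 10 or more, against 4.80 and 10.9 in young cells. Wnt10b was at 21.8 and 54.1 CPM, Ebi3 at 6.72 and 59.5 and Gimap4 at 8.40 and 172 in the same IkB-deficient cells. The values of these 3 genes without Igll1 rest on few UMIs, as that class held 595033 UMIs in all. Cd74 had the opposite order, at 2970 without Igll1 and 2027 at 10 or more, against 608 and 114 in young cells. Nfkbia was at 572, 615 and 341 CPM in young, aged and IkB-deficient cells without Igll1 and at 146, 155 and 158 at 10 or more, so the lower Nfkbia lay in the cells without Igll1. The class II median was 1.17 without Igll1 and 2.26 at 10 or more, and that of the NF-kB targets 0.23 and 1.19. Ltb was also high in other IkB-deficient cells, at 575 CPM in dividing cells without a chain and 877 in resting cells. Within the classes 119 genes (2.10%) were higher and 93 (1.64%) lower without Igll1, and 145 (2.63%) higher and 84 (1.53%) lower at 10 or more.

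**Figure D4:**
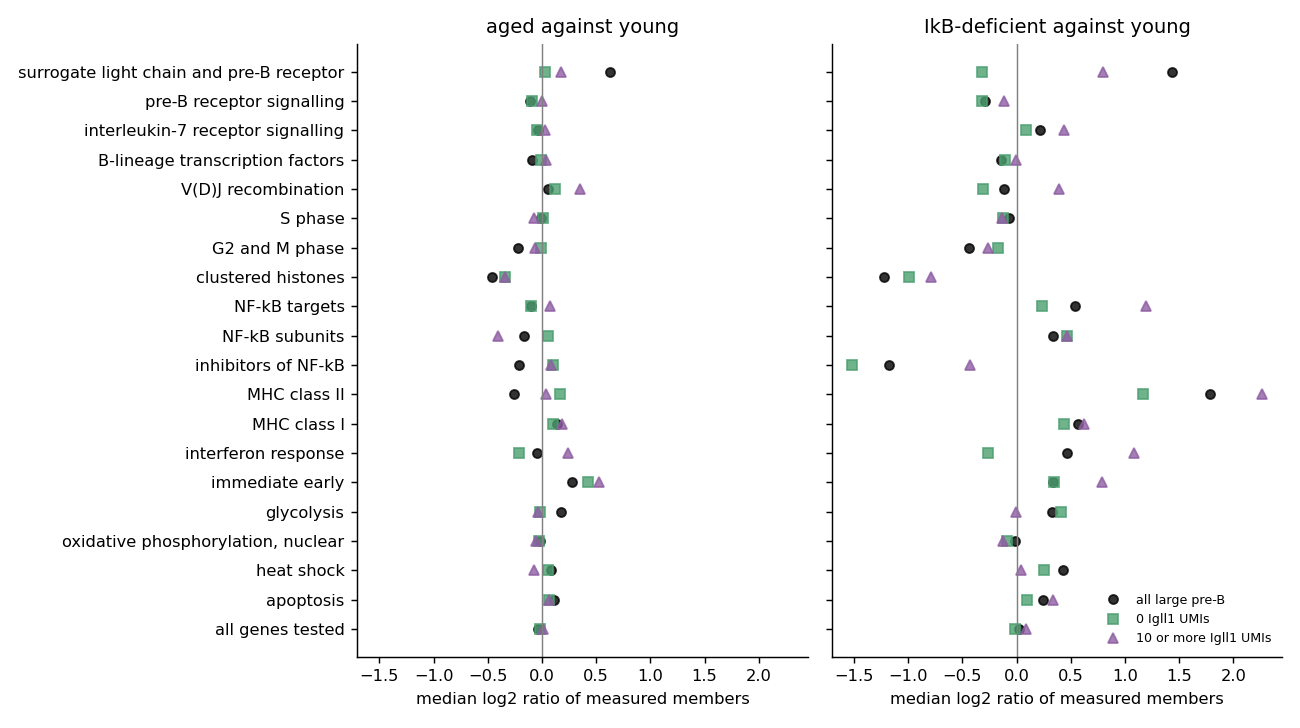
Median log2 ratio (x axes, log2 of CPM + 5) of the measured genes of each list (y axis) in all large pre-B cells (circles), those with 0 Igll1 UMIs (squares) and those with 10 or more (triangles), for aged (left) and IkB-deficient (right) against young. MHC class II lies at 1.79, 1.17 and 2.26 in the IkB-deficient comparison, and MHC class I at 0.57, 0.43 and 0.63; the surrogate light chain list holds Igll1, which sets the classes.

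Genes of the surrogate light chain, of V(D)J joining and of the cell surface differed in both directions. Igll1 was at 574 CPM in young, 893 in aged and 1557 in the IkB-deficient cells, Vpreb1 at 328, 533 and 1042, and Vpreb3, a companion of the heavy chain, at 2356, 2281 and 1750. Dntt was at 70.1, 164 and 363 CPM, Socs2 at 24.6, 66.4 and 114, and Ccnd2 at 57.1, 115 and 197. Apart from Vpreb3, these genes were lowest in young and highest in IkB-deficient cells. The surrogate light chain and pre-B receptor list had 3 of 5 above 0 and a median of 1.43, where 53.7% of all genes were above 0. The surface genes Cd38 and Cd2 were at 82.5, 77.8 and 30.4 and at 39.4, 24.0 and 13.7 CPM, and Ly6d was at 528, 330 and 1303. Il7r, the interleukin-7 receptor alpha chain, was at 330, 286 and 242 CPM and Il2rg, the common gamma chain, at 58.0, 66.2 and 175. The interleukin-7 receptor list had 8 of 10 genes above 0 and a median of 0.22, beside the same 53.7% of all genes.

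Fewer transcription factor and receptor signalling genes were above 0 than the 53.7% of all genes. Of 21 B-lineage factors 7 were above 0 with a median of -0.14, and 10 with a median of -0.0043 at 10 or more Igll1 UMIs; Ebf1, which sets B-lineage identity, was at 1796, 1566 and 1054 CPM and Spib, an ETS factor, at 439, 297 and 285. Irf8, a factor that is also high in plasmacytoid dendritic cells, was at 190 CPM in the young and 337 in the IkB-deficient cells. Pre-B receptor signalling had 3 of 16 above 0 and a median of -0.29: Dok3, an adaptor that dampens signalling, was at 427 and 214 CPM, Cd72, an inhibitory coreceptor, at 435 and 244, and Syk, the receptor's kinase, at 212 and 153. The S phase list had 6 of 30 above 0 with a median of -0.07. All 10 heat shock genes were above 0 with a median of 0.43, and all 9 glycolysis genes with a median of 0.32. At 10 or more Igll1 UMIs, where 61.8% of all genes were above 0, these lists had 6 of 10 and 5 of 11 above 0 with medians of 0.04 and -0.0085. The apoptosis list had 7 of 9 above 0; Trp53, p53, was at 161 and 296 CPM. Syk, Irf8, Cd38 and Cd2 were named after their values were seen.

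The genes lowest against young cells included histones, Nfkbie and small proteins. Hist3h2ba was at 95.7, 68.5 and 6.01 CPM in young, aged and IkB-deficient cells, Hist1h2ap at 260, 162 and 51.8 and Hist2h2bb at 80.4, 45.7 and 17.0. All 12 measured genes of the clustered histone list were below 0 with a median of -1.22, where 46.3% of all genes were below 0. Crip1, a small zinc-binding protein, was at 1472, 1423 and 311 CPM (4.74-fold between young and IkB-deficient). Ifi27l2a, an interferon-inducible protein, was at 441, 338 and 89.5 (4.93-fold) and Uchl1, a ubiquitin hydrolase, at 109, 72.4 and 20.04 (5.43-fold). Rsph1, a cilium protein, was at 151, 104 and 35.7 CPM and Emid1, an extracellular matrix protein, at 95.1, 62.9 and 25.4. The aged level lay between the other libraries in each of these genes.

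The heavy chains themselves used different segments in the 3 libraries. The IGHV1 family, whose genes lie mostly far from the D and J segments, was in 59.2% (56.9 to 61.5) of the young, 51.5% (48.7 to 54.3) of the aged and 31.0% (25.4 to 37.0) of the IkB-deficient large pre-B cells. The near family IGHV5 was in 8.17%, 11.9% and 19.4%, IGHV2 in 5.20%, 6.52% and 10.1%, and IGHV3 in 4.25%, 3.75% and 9.30%. Single genes gave much of this: 18 of the 50 IkB-deficient IGHV5 cells had IGHV5-2 and 15 IGHV5-9-1. Of the 24 IGHV3 cells 14 had IGHV3-1. Other near genes went both ways between young and IkB-deficient cells. IGHV5-4 was in 1.51% and 0.388%, IGHV5-12 in 1.17% and 0, and IGHV2-3 in 0.559% and 3.10%. The median distance of the V gene from Ighj1 was 1294, 1253 and 735 kb, with quartiles of 833 to 2066, 679 to 1864 and 366 to 1279. IGHJ4, the J segment nearest the constant genes, was in 34.2% (32.0 to 36.4), 23.5% (21.1 to 25.9) and 15.5% (11.3 to 20.5), IGHD1 in 40.7%, 35.0% and 14.7%, and IGHD2 in 39.3%, 41.2% and 58.5%. Resting heavy-chain cells had the same order, with IGHV1 in 55.9%, 51.6% and 31.2% and IGHJ4 in 31.2%, 21.1% and 15.2%. Within the aged pool IGHV1 was in 50.2% of Y-linked and 54.5% of Xist-only cells. The constant gene was IGHM in all cells but 2 aged ones, which had IGHD.

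Single V genes differed as well, near and far from the J segments. IGHV5-2, at chr12:113578504-113578990 (mm10) and 149 kb from Ighj1, was in 0.615% of young large pre-B cells (11 of 1788), 1.87% in aged (23 of 1227) and 6.98% in IkB-deficient (18 of 258). Of these cells 4, 19 and 17 had 10 or more Igll1 UMIs. Among all cells at 10 or more it was in 1.14% of the young, 4.90% (2.97 to 7.54) of the aged and 14.8% (8.85 to 22.6) of the IkB-deficient cells. Without Igll1 it was in 7 of 941 young cells (0.744%), 1 of 402 aged cells (0.249%) and 0 of 76 IkB-deficient cells, with an upper limit of 4.74%. Resting cells had it in 0.672%, 2.09% and 4.40%. The printed IGHV5-2 clones gave 4 of the 23 aged and 3 of the 18 IkB-deficient large pre-B cells with this gene. The intervals treat such sister cells as independent, and these shares were not recomputed with 1 cell per clone. IGHV5-9-1 was in 0.503%, 0.978% and 5.81%, IGHV6-6 in 0.895%, 1.39% and 5.04%, and IGHV3-1 in 0.336%, 0.163% and 5.43% of young, aged and IkB-deficient large pre-B cells. The IGHV1 family gene IGHV1-26 was in 6.32%, 4.48% and 3.49%, and IGHV1-72 in 3.41%, 3.42% and 0 of 258, with an upper limit of 1.42%.

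CDR3s were shorter in the IkB-deficient cells. The mean length was 43.5 nucleotides in young, 43.1 in aged and 40.7 in the IkB-deficient cells, with SDs over cells of 8.54, 8.45 and 7.41. A CDR3 of at least 54 nucleotides, the length of the printed IkB-deficient IGHV5-2 sequence, was in 14.5%, 13.2% and 6.98% of the cells, and 1 of at most 36 in 22.7%, 24.9% and 32.9%. More than 1 productive heavy chain was assigned to 7.05%, 5.54% and 2.33% of large pre-B cells, against 2.99%, 2.71% and 0.879% of resting cells. A further heavy-chain contig with a V gene that was not productive was found in 10.4%, 6.36% and 1.94% of large pre-B cells.

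Few large pre-B cells shared a heavy chain with another cell of their library. The share was 3.80% (2.97 to 4.80) in young, 7.17% (5.79 to 8.76) in aged and 12.0% (8.31 to 16.6) in the IkB-deficient cells, and 3.83%, 6.40% and 8.35% in resting cells. Within the aged pool it was 4.11% in Y-linked and 8.39% in Xist-only cells. The clones that held a large pre-B cell numbered 47, 49 and 24 with 106, 119 and 57 cells, and the largest had 8, 8 and 4 cells. Besides 68, 88 and 31 large pre-B cells they held 12, 14 and 12 resting cells and 10, 6 and 2 cells with a heavy and a light chain. Cells of each library come from 2 pooled mice and sampled cells set how many sister cells are seen, so the shares describe these libraries. Between libraries 1 pair of large pre-B cells, young and aged, had the same heavy chain. Over all cells with a heavy chain 3 heavy chains were in both the young and the aged library, and 0 in the other pairs of libraries.

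**Figure D5:**
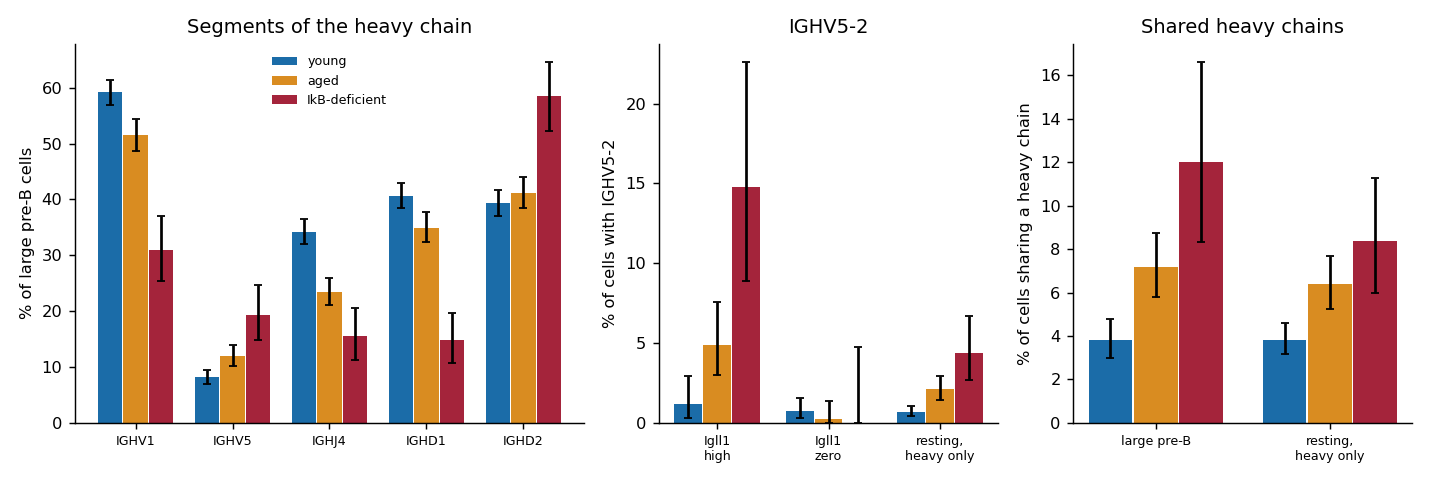
Percent of large pre-B cells with each heavy chain segment (left), percent of cells with IGHV5-2 by Igll1 class and in resting cells (middle), and percent of cells sharing a heavy chain with another cell (right) in the 3 libraries; bars are shares of cells and error bars exact 95% intervals. IGHV1 runs from 59.2% in young to 31.0% in the IkB-deficient cells, and IGHV5-2 at 10 or more Igll1 UMIs from 1.14% to 14.8%.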

How the data were processed

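Gene expression and V(D)J chains were measured in 3 sorted bone marrow pools. The deposited matrices hold raw counts of UMIs per gene and cell that the authors made with Cell Ranger on mm10, per the submitters' processing notes (release not given; matrix headers name software version 3.0.1). The deposited contig tables give UMI and read counts for each contig. The authors' clonotype tables give cell counts and the fraction of cells in each clonotype, and were not used. Contigs were joined to cells by barcode within a group.

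Members' UMIs were summed per library, with 651 immunoglobulin and T cell receptor genes of 31053 left out, and scaled to CPM. Ratios are log2(CPM + 5) at a mean CPM of at least 20 and called at 2-fold; intervals are exact conditional binomial or Clopper-Pearson at 95%. No gene test was possible with 1 library a group. In counts simulated with counting error only from the summed young profile, 0 of 5285 unchanged genes passed 2-fold in the aged comparison. In the IkB-deficient comparison it was 0 of 5324. Spread between cells, clones, doublets or mice was not simulated, so these counts give no rate of false calls in the data.

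Named genes are the 10 highest and 10 lowest of each comparison by the interval bound nearest 1 (no Ig, T cell receptor, Xist or Y-linked gene, none with over 20% of its UMIs from 1 cell), the 4 of highest mean CPM in each list, the targeted genes and the markers; others were chosen after their values were seen. Members and lists were chosen with earlier results of these data known. Alternatives were another scaling, pseudocount and filter, a stricter cycling or contig rule, cells with only Y-linked UMIs, and doublet scores. The Igll1 classes and the cells without non-B markers were added after the data were seen. Doublet scores came from Scrublet in scanpy 1.11.5; Python 3.11.15, numpy 2.4.6, scipy 1.17.1, pandas 2.3.3 and matplotlib 3.10.9 were used.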

Additional observations from a re-analysis of the deposited data

Results flagged for a closer look

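Kappa contigs outside the productive chains gave signal in the large pre-B cells, which by the rule have no productive kappa or lambda contig. An IGK contig without a V gene was found in 92.5%, 86.6% and 89.9% of the young, aged and IkB-deficient large pre-B cells, against 6.49%, 6.40% and 48.7% of the Siglech cells without Cd79a, which had medians of 6689, 7654 and 6527.5 UMIs. Dividing cells without a productive chain had such a contig in 14.7%, 16.3% and 82.4%, and resting heavy-chain cells in 51.8%, 45.8% and 83.3%. By Igll1 the share was 95.2%, 94.0% and 93.4% without Igll1 and 79.7%, 72.7% and 87.0% at 10 or more, where the cells are deeper. The background in the IkB-deficient library was itself high.

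An IGK contig with a V gene that was not productive was found in 3.97%, 3.50% and 8.91% of the young, aged and IkB-deficient large pre-B cells, against 0.260%, 0.548% and 0.145% of the Siglech cells. In resting heavy-chain cells the shares were 31.7%, 33.1% and 14.1%. Both kinds of contig were picked out because they lie outside the productive chains that chose the cells and stand above the Siglech cells.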

How the results depend on the processing

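With 1 library a group, depth and counting limit each value and spread between mice is not measured. Only the aged pool could be split by mouse, which is also a split by sex. Its Y-linked and Xist-only large pre-B cells differed in the share with an Igll1 UMI, at 73.5% and 59.0%. No paired analysis was possible because each group has 1 library and no test was made. The counts of 2-fold genes moved most with the filter on low values. For aged against young the count of higher genes was 8 with median-of-ratios scaling, 11 with a pseudocount of 1 CPM, 1 among genes of 100 CPM or more, 13 with no filter, 3 without the top doublet scores, 8 in cells without Igll1 and 10 at 10 or more Igll1 UMIs. The count of lower genes was 6 with a pseudocount of 1 CPM, 0 among genes of 100 CPM or more, 9 with no filter, 7 in Y-linked cells, and 6 and 1 in the Igll1 classes. For IkB-deficient against young the main setting gave 113 higher and 86 lower genes. Without the top doublet scores 77 were higher and 80 lower, and with a pseudocount of 1 CPM 139 and 99. The higher genes numbered 33 among genes of 100 CPM or more and 245 with no filter, and the lower genes 42 among genes of 100 CPM or more. The ratio of large pre-B shares was 0.164 without cells holding non-B markers. Medians larger than the counting error of their genes changed sign only within Igll1 classes. In cells without Igll1 the aged medians were 0.10 for inhibitors of NF-kB, 0.17 for MHC class II and -0.018 for glycolysis, and the IkB-deficient medians -0.26 for the interferon response and -0.32 for the surrogate light chain list, where the class fixes Igll1 and 3 of the 5 genes were measured. At 10 or more Igll1 UMIs the aged medians were 0.088 for inhibitors, 0.040 for MHC class II, -0.032 for glycolysis, 0.035 for B-lineage factors and -0.077 for heat shock, and the IkB-deficient glycolysis median was -0.0085. Medians within that error also changed sign, among them at 10 or more Igll1 UMIs V(D)J recombination (0.39) and stage surface markers (0.079) in IkB-deficient cells and NF-kB targets (0.075), the interferon response (0.24) and stage surface markers (0.10) in aged cells. In aged cells without Igll1 the NF-kB subunits (0.060) and stage surface markers (0.10) did so, and with no filter the interleukin-7 receptor list (0.12). Of the recomputed main values 86 were classed as unchanged and 17 as moved. Of those of single genes and lists 676 were classed as unchanged and 105 as moved, and 11 changed sign as given first above. The limit between unchanged and moved is not stated here, so these counts are a description only. The cause of the moved values was not tested.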
